A study of Mus musculus with 8 samples.

Results

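The genes of glucose use, lactate exchange and glycogen storage were examined in sorted astrocytes of the mouse spinal cord. The set holds 35 genes chosen by symbol, from the glucose transporter Slc2a1 through the glycolytic enzymes to lactate dehydrogenase, the monocarboxylate transporters, pyruvate dehydrogenase and the glycogen enzymes. All 35 were found among the 39179 identifiers counted. The choice used no measured value of the comparison, but it was made with earlier results of these data known.

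The study set out to compare astrocytes with and without Kir4.1, an inward rectifier channel for potassium whose gene is Kcnj10, and its title places this in the support of fast motor neurons. There were 4 control libraries, called control S1, S2, S6 and S7, labelled wild-type and, in the design text, cre-negative. The 4 libraries of the conditional knockout, called cKO S3, S4, S5 and S8, came from mice with Aldh1l1-cre and both Kir4.1 alleles floxed. All 8 libraries were of the mixed swiss-webster strain at postnatal days 12 to 14, and in all of them cells were sorted by flow cytometry for the Aldh1l1-GFP reporter. Aldh1l1 elements thus drove both the cre and the reporter that defined the cells. The design text calls the libraries of a group biological replicates. The sources used here do not say whether a library is 1 animal, or whether the controls carried floxed alleles.

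Glycolysis splits glucose into pyruvate in the cytosol, and pyruvate is then either oxidised in mitochondria after passing pyruvate dehydrogenase or reduced to lactate. Astrocytes are known for strong glycolysis, for releasing lactate through monocarboxylate transporters, and for holding nearly all the glycogen of the nervous system. Extracellular potassium is a known trigger of glycogen breakdown in astrocytes, and Kir4.1 is a main route by which astrocytes take up potassium. Many steps are carried out by isozymes from separate genes, which differ in regulation and in their usual tissue.

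Reads assigned to genes numbered between 13892736 (control S2) and 25065686 (cKO S8) per library, of which the 35 genes took 0.420% to 0.864%. Values are CPM, read counts scaled to a common library size after TMM normalization. Where values of all libraries are listed, the controls stand in the order S1, S2, S6, S7 and the cKO libraries in the order S3, S4, S5, S8. Kcnj10 was at 1181, 2306, 1856 and 1937 CPM in the controls and at 35.6, 27.2, 37.6 and 35.4 CPM in the cKO libraries, so the groups did not overlap and no library went against its label. Control S1 was the lowest of the controls. The 11 astrocyte markers, Aldoc among them, summed to 16752 to 24820.4 CPM in controls and 19541 to 24025 CPM in cKO. Of the 11, Aldh1l1, whose elements drive the cre and the sort reporter, passed in edgeR (adjusted p 0.0179) and was at 151, 135, 131 and 139 CPM in the controls and 284, 248, 349.8 and 244 CPM in cKO. Aqp4, the astrocyte water channel, also passed (adjusted p 0.0243) and was at 2454, 1993, 1588 and 1993 CPM in the controls and 3373, 5268, 4113 and 4389.6 CPM in cKO. Mean CPM was higher in cKO for 6 of the 11 and lower for 5, Gja1, Fgfr3 and Gjb6 among them, and the part of these shifts in the results below was not tested. Markers of oligodendrocytes (10 genes) summed to 1536 to 3073 CPM in controls and 1022 to 2474 CPM in cKO, and all 10 had a lower mean in cKO. Those of oligodendrocyte precursors (7 genes) summed to 404 to 1192 CPM in controls and 304 to 548 CPM in cKO, and 6 of 7 had a lower mean in cKO. Fibroblast markers (6 genes) reached 614 CPM in control S6 and 248 CPM or less elsewhere. Sums for endothelial, neuronal, microglial, mural, ependymal, erythroid and Schwann cell markers were at most 91.4 CPM in any library.

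In control astrocytes the most abundant of the 35 genes per length was Aldoc, the aldolase typical of brain astrocytes, at 503 ± 146 CPM per kilobase of merged exons (SD, n = 4). Ldhb, the lactate dehydrogenase subunit of heart-type tissue, followed at 177 ± 27.4 CPM per kilobase (SD, n = 4). Bsg, the partner protein that carries monocarboxylate transporters to the membrane, was at 135 ± 37.6 and Gapdh, the dehydrogenase of lower glycolysis, at 122 ± 20.9 CPM per kilobase (SD, n = 4 each). The spreads of Ldhb and Bsg overlapped, as did those of Bsg and Gapdh. Next came Pygm, the muscle-type glycogen phosphorylase, at 88.1 ± 26.3 and Slc2a1, the main glucose transporter of glia and of brain endothelium, at 83.8 ± 27.5 CPM per kilobase (SD, n = 4 each), again within their spread. At the other end Slc16a3, Pygl, Slc16a7 and Hk2 were the lowest, at 0.110, 0.153, 0.322 and 0.453 CPM per kilobase. The deposited FPKM also put Aldoc first, at a control mean of 1382, and the same 4 genes last, but put Gapdh second at 957.

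Levels of a few of these genes are uncertain, because reads that align to several places were left out of the gene counts. Of the 50-base words of the longest coding transcript, 82.5% for Gapdh, 72.2% for Eno1, 68.0% for Pgk1, 41.5% for Pgam1 and 34.4% for Pkm also occur in another annotated gene, such as the close copy Eno1b for Eno1. The counts of these genes may therefore miss reads of their own. For Slc2a1, Pfkfb3, Aldoc, Pygb, Pygm, Pygl and Ugp2 the share was at most 1.74%, and for Ldha it was 16.6%. It was higher for Ldhb, at 27.0%, shared with Gm5514, and for Gpi1, at 25.3%. Pfkp shares 17.1% of its words with Pitrm1, and Pfkfb2 25.1% with Gm29427. Strand use in the counting is not given in the sources used here. Gene counts also do not tell the splice forms of Pkm apart.

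**Figure D1:**
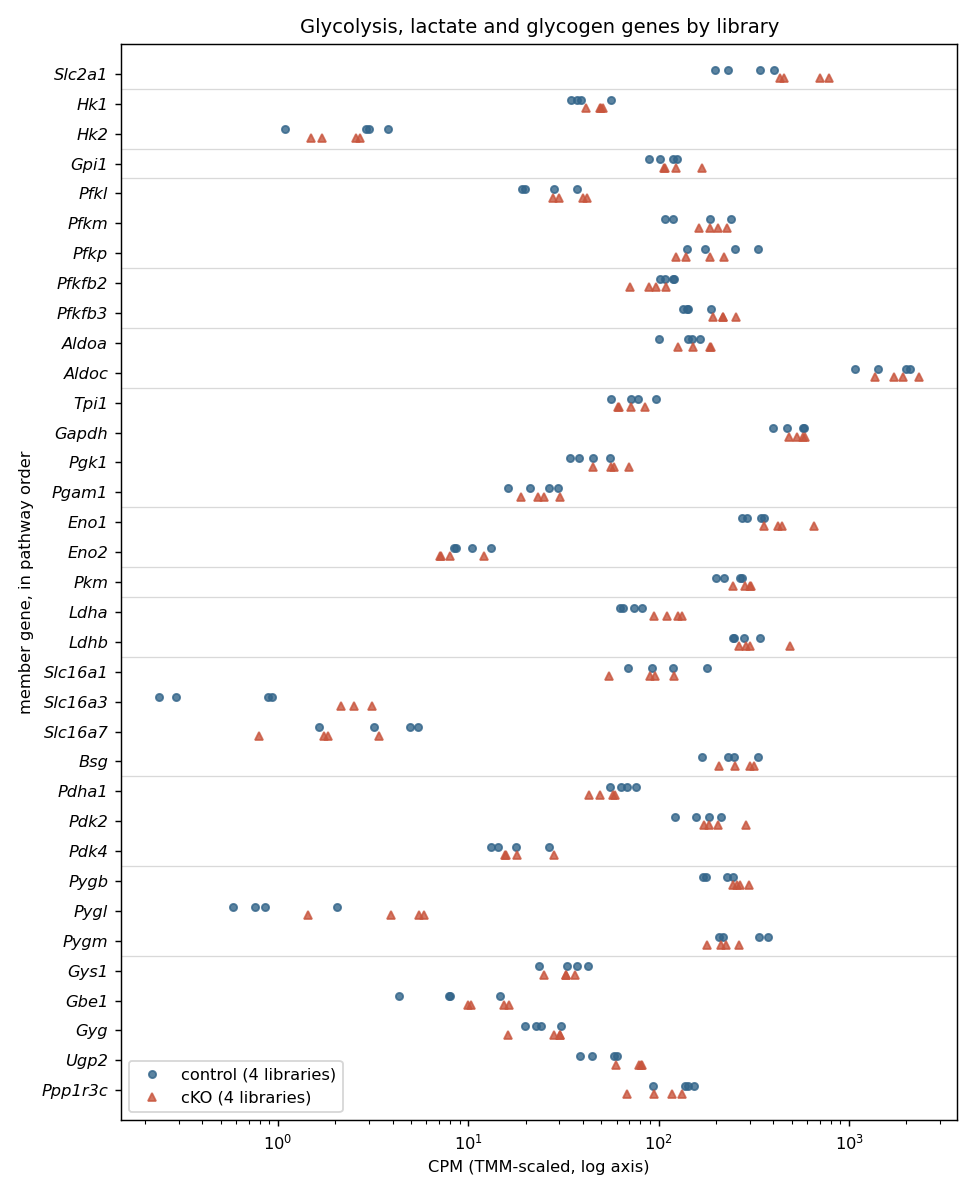
CPM of each of the 35 genes (rows, in pathway order) on a log axis, with 1 point per library, circles for the 4 controls and triangles for the 4 cKO libraries; a library at 0 (Slc16a3 in cKO S5) has no point. Aldoc lies highest, between 1077 and 2341 CPM, and Slc16a3 lowest.

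Within 9 steps served by more than 1 gene of the set, the share of each gene in the summed level per length was taken in the control astrocytes. It describes the mix of those genes at the RNA level. Genes of the same steps outside the set, such as Pdk1, Pdk3, Pfkfb4, Eno3 and Slc16a4, were not counted in the shares. In 6 of them the same gene led by a wide margin on every length measure tried. Slc16a1, a lactate and pyruvate transporter, held 98.0% ± 1.17 of the transporter level and Eno1, the enolase of glia, 96.4% ± 0.971 of enolase (SD, n = 4 each). Hk1, the constitutive hexokinase, held 91.4% ± 4.08, and Aldoc held 91.1% ± 1.41 of the 2 aldolases (SD, n = 4 each). Pdk2, a kinase that switches off pyruvate dehydrogenase, held 90.7% ± 4.76 of Pdk2 and Pdk4, and Ldhb held 89.2% ± 1.19 of Ldhb and Ldha (SD, n = 4 each). Their lowest share under the other length measures was 84.5%, for Ldhb with the longest transcript. Slc16a3, the lactate exporter of strongly glycolytic cells, made up 0.427% ± 0.278 of the 3 transporters and Slc16a7, a high-affinity form known from neurons, 1.53% ± 1.10 (SD, n = 4 each). Slc16a3 had 14, 4, 17 and 5 reads in the controls.

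The other 3 steps had no isozyme that dominated on all measures. For glycogen phosphorylase, Pygm held 66.7% ± 2.75 and Pygb, the brain type, 33.2% ± 2.68 of the control level (SD, n = 4 each), while Pygl, the liver type, held 0.132% ± 0.104. The deposited FPKM gave Pygm 85.8%. Pfkfb3 and Pfkfb2 both make and remove the sugar bisphosphate that activates phosphofructokinase, and Pfkfb3 held 56.3% ± 3.11 by merged exons and 83.7% by the deposited FPKM. For phosphofructokinase the order itself depended on the length used. Merged exons gave Pfkm 69.6% ± 4.86, Pfkp 24.2% ± 4.68 and Pfkl 6.22% ± 3.24 (SD, n = 4 each), whereas the deposited FPKM gave Pfkp 61.9% and Pfkm 30.8%. The merged exons of Pfkp span 13401 bases and those of Pfkm 3340.

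The change in cKO was then tested for all 14757 genes that passed the filter on low counts, all 35 genes of the set among them. None of the 35 passed an adjusted p of 0.05 by the quasi-likelihood test of edgeR after Benjamini-Hochberg adjustment, where 0.318% of all genes tested did. The lowest adjusted p was 0.110, for Ldha. At an unadjusted p under 0.05 there were 7 of 35, or 20.0%, against 9.81% of all genes tested. All 7 had higher values in cKO, a direction in which 5.03% of all genes passed. They were Slc2a1, Pfkfb3, Eno1, Ldha, Pygb, Pygl and Ugp2. For 4 of the 35 control and cKO values did not overlap, all 4 being higher in cKO, against 6.34% of all genes in either direction and 3.39% in this one. The log2 fold change, cKO over control, was above 0 for 24 of 35, with a median of 0.20, and for 7139 of all 14757 genes, with a median of −0.017. In these bulk samples fewer cells of a type and less RNA per cell cannot be told apart.

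Other tools called some of these genes. DESeq2 on the same counts called 3 of 35, Ldha, Slc2a1 and Pygl, against 2.49% of the genes it gave an adjusted p. The authors' deposited table also lists these 3 with an adjusted p under 0.05, 0.00469 for Ldha, 0.0176 for Slc2a1 and 0.0456 for Pygl, where 2.87% of genes with an adjusted p pass. Limma-voom called 0 of 35 (0.325% of all genes) with 7 at an unadjusted p under 0.05 (10.6% of all genes). Limma on log2 of the deposited FPKM plus 1 called 0 of 35 (0.0557% of all genes) with 5 at an unadjusted p under 0.05 (8.27% of all genes). With edgeR on plain library totals Ldha alone passed, at an adjusted p of 0.0470, where 0.42% of all genes passed.

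**Figure D2:**
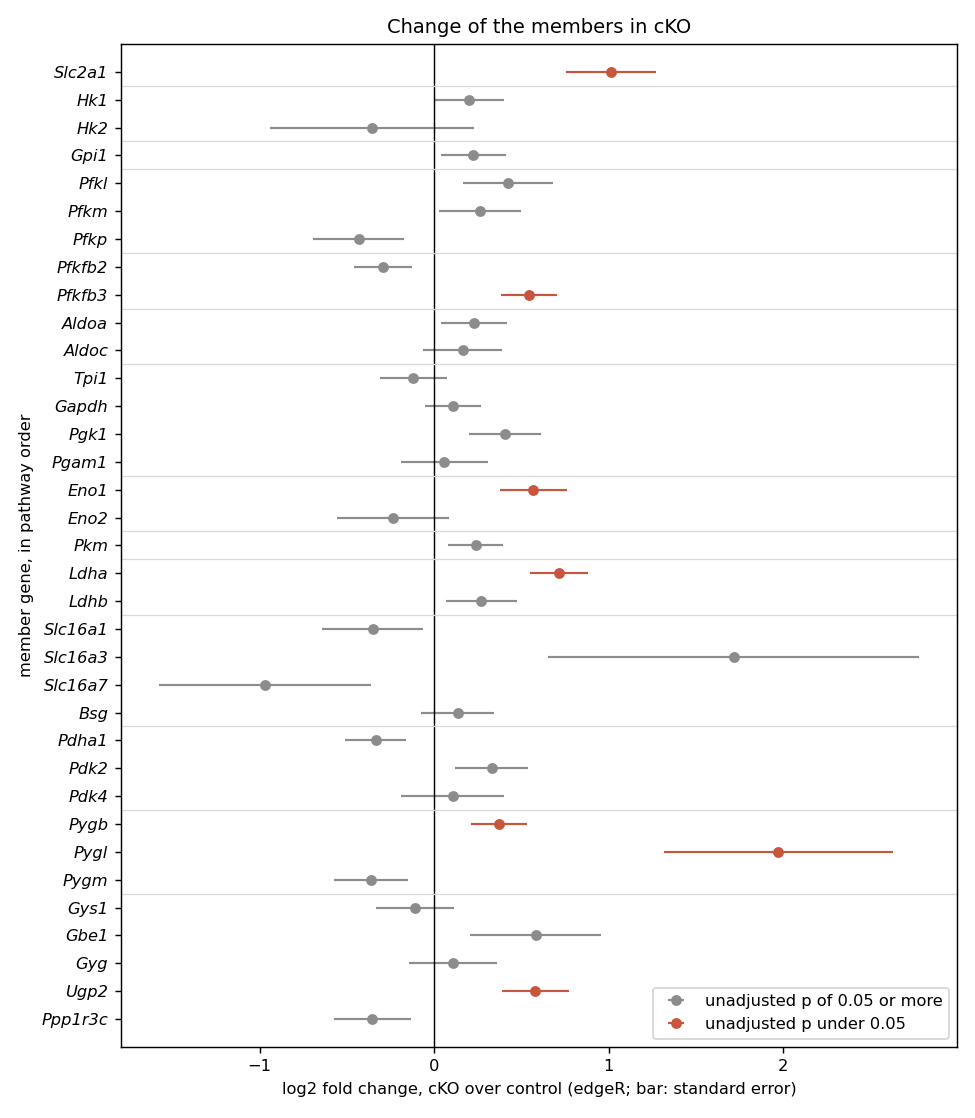
Log2 fold change, cKO over control, of the 35 genes in pathway order from edgeR (points, with bars for the standard error); the 7 genes with an unadjusted p under 0.05 are in red. All 7 lie to the right of 0, and Pygl and Slc16a3, both at few reads, have the widest bars with Slc16a7 and Hk2.

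Glucose enters astrocytes through the transporter of Slc2a1 (chr4:119108711-119137983, plus strand on GRCm38). Slc2a1 was at 405, 342, 197 and 231 CPM in the controls and at 452, 703, 783 and 435 CPM in the cKO libraries. Every cKO library lay above every control library, with cKO S4 and S5 highest. The means were 294 CPM ± 96.6 for the 4 controls and 593 CPM ± 176 for the 4 cKO libraries (SD), a 2.02-fold difference with a log2 fold change of 1.01 (SE 0.26). Its adjusted p in edgeR was 0.156, and between 0.142 and 0.429 when each library was left out in turn. Endothelial cells also use Slc2a1. Their 9 markers, Cldn5, Pecam1 and Flt1 among them, summed to 41.6 to 76.8 CPM in controls and 23.9 to 56.6 CPM in cKO, and 8 of 9 had a lower mean in cKO. Their part in the Slc2a1 values was not tested.

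Glucose is trapped by hexokinase and committed to glycolysis by phosphofructokinase. Hk1 was at 55.9, 37.0, 39.1 and 34.5 CPM in the controls and 49.2, 41.5, 50.9 and 49.9 CPM in cKO, and the groups overlapped, with a log2 fold change of 0.20 and an adjusted p of 0.791 from edgeR. Hk2, an inducible hexokinase, stayed between 1.09 and 3.79 CPM in all 8 libraries. Pfkp was at 252, 331, 176 and 140.2 CPM in controls and 186, 139, 219 and 123 CPM in cKO, with a log2 fold change of −0.43 (adjusted p 0.628 in edgeR) that was −0.18 without control S2. Pfkm and Pfkl had log2 fold changes of 0.26 and 0.42, and Gpi1, the isomerase between these steps, 0.23. The groups overlapped for each of these 6 genes, and none had an unadjusted p under 0.05 in edgeR.

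Pfkfb3 (chr2:11471433-11554077, minus strand) encodes the PFKFB enzyme whose balance most favours making the activator of phosphofructokinase. It was at 142, 187, 142 and 134 CPM in the controls and at 192, 216, 218 and 256 CPM in the cKO libraries. The groups did not overlap, although control S2 came within a few CPM of cKO S3. The log2 fold change was 0.54 (SE 0.16), a 1.46-fold difference, and the adjusted p from edgeR was 0.247. Its counterpart Pfkfb2 was at 121, 119, 101 and 108 CPM in controls and 109.8, 96.5, 70.3 and 89.0 CPM in cKO, with a log2 fold change of −0.29 and an adjusted p of 0.602 from edgeR.

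Among the enzymes from aldolase to pyruvate kinase, Eno1 (chr4:150236721-150248879, plus strand) stood highest in cKO relative to controls. Eno1 was at 343, 291, 273 and 358 CPM in controls and 359, 442, 654 and 423 CPM in cKO. The groups nearly touched, between control S7 and cKO S3, and cKO S5 was highest. The log2 fold change was 0.57 (SE 0.19) with an adjusted p of 0.326 from edgeR, and without cKO S5 it was 0.37. Aldoc was at 2079, 1992, 1077 and 1412 CPM in controls and 1729, 1921, 2341 and 1366 CPM in cKO, an overlapping range with a log2 fold change of 0.17 (adjusted p 0.861 in edgeR). Gapdh was at 581, 473, 399 and 570.3 CPM in controls and 486, 574, 586 and 535 CPM in cKO, with a log2 fold change of 0.11. Pkm, which makes pyruvate, was at 273, 219, 200.3 and 267 CPM in controls and 244, 284, 299.9 and 305 CPM in cKO, with a log2 fold change of 0.24 (adjusted p 0.665 in edgeR). The other genes of these steps, Aldoa, Tpi1, Pgk1, Pgam1 and Eno2, had overlapping groups and log2 fold changes from −0.24 (Eno2) to 0.41 (Pgk1).

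Lactate dehydrogenase interconverts pyruvate and lactate, and Ldha encodes the subunit of muscle-type tissue, known for favouring lactate. Ldha (chr7:46841475-46855627, plus strand) was at 81.3, 62.6, 64.8 and 73.9 CPM in the controls and at 94.6, 133, 111 and 126 CPM in the cKO libraries. All 4 cKO libraries lay above all controls, and the gap between the groups was the widest of the 4 such genes of the set in relative terms. The means were 70.6 CPM ± 8.62 for the 4 controls and 116 CPM ± 17.0 for the 4 cKO libraries (SD). The log2 fold change was 0.72 (SE 0.17), a 1.64-fold difference. The adjusted p was 0.110 in edgeR, between 0.0937 and 0.359 in the 8 edgeR fits without 1 library, and 0.00567 in DESeq2. Ldhb was at 339, 279.6, 246 and 249 CPM in controls and 288, 303, 491 and 263 CPM in cKO. Of the cKO libraries S5 alone lay above all controls, and the log2 fold change of 0.27 (adjusted p 0.713 in edgeR) was 0.036 without that library.

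**Figure D3:**
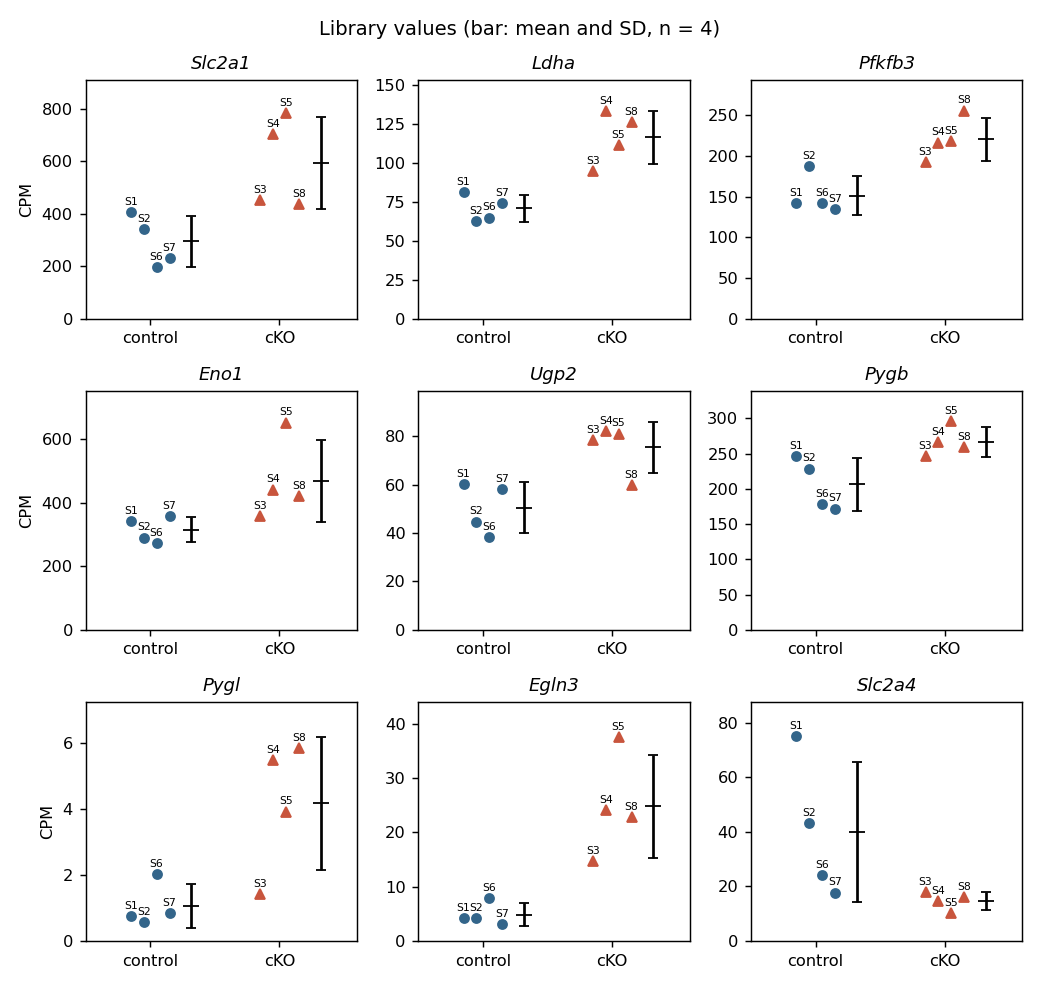
CPM per library on linear axes for the 7 genes of the set with an unadjusted p under 0.05 and for Egln3 and Slc2a4, with points labelled by library and bars for the mean and SD (n = 4). The groups do not overlap for Slc2a1, Ldha, Pfkfb3, Eno1 and Egln3.

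The stretch before a start of Slc2a1, Ldha and Eno1, 3 of the 4 genes whose groups did not overlap, is shown with the cores ACGTG and GCGTG, found in sites of hypoxia-inducible factors, of which these genes are textbook targets. The 3 were chosen after their values were seen, and a part of these factors in the values was not tested. Each line gives the bases before the first RefSeq start listed for the gene (GRCm38.p6), written 5′ to 3′ along the gene and cut where an annotated exon begins, with both cores in capitals on either strand (CACGT and CACGC when read from the other strand).
Slc2a1 at chr4:119108495-119108710, plus strand: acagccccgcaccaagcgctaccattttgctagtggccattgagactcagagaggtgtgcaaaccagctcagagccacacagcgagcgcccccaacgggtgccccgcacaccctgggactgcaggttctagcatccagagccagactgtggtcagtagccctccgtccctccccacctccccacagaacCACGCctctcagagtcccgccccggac
Ldha at chr7:46845554-46845803, plus strand: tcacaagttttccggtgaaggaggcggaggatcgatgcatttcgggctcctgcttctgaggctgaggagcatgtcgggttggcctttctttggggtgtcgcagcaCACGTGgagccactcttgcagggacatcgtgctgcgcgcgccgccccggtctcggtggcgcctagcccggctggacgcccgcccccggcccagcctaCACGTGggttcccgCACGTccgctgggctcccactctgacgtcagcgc
Eno1 at chr4:150236458-150236707, plus strand: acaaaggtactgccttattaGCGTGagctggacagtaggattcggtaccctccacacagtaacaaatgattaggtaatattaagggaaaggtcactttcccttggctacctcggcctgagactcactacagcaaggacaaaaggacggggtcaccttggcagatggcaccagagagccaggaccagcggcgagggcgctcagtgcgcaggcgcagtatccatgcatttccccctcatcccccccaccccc
The stretch of Ldha holds 5 matches, 4 of them from 2 copies of the palindrome CACGTG, which counts on both strands. Those of Slc2a1 and Eno1 hold 1 match each, the former at 61 and the latter at 230 bases before the start. Slc2a1 has a further match at 36 bases before this start, which runs into the annotated exon and is not printed. The listed start of Ldha lies within the longer GENCODE gene model given above, so its stretch precedes an internal start of that model. Over the 250 bases before the first listed start, 25 of 33 genes of the set with a RefSeq window held at least 1 match (75.8%). Among all 27025 genes with a window the share was 38.6%, and among the 17492 protein-coding ones 43.8%. Both cores contain CG, and the windows compared were not matched for base composition. Matches were not counted by direction of change, and a link between the 2 was not tested. As examples, Ugp2, with a log2 fold change above 0, held 6 matches. Slc16a1, Pfkp and Pdha1, all below 0, held 4, 3 and 3. A match is a run of letters and was not shown to be bound here.

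Lactate leaves and enters cells through monocarboxylate transporters. Slc16a1 was at 180.2, 119, 91.8 and 69.3 CPM in controls and 95.2, 121, 54.7 and 90.02 CPM in cKO, with control S1 highest and cKO S5 lowest. Its log2 fold change was −0.35 (adjusted p 0.745 in edgeR) and −0.050 without control S1. Oligodendrocytes and endothelial cells also express Slc16a1, their summed markers, given above, reached lower values in cKO, and their part in this value was not tested. Slc16a3 was at 0.887, 0.291, 0.934 and 0.237 CPM in controls and 2.15, 2.49, 0 and 3.12 CPM in cKO. It was thus above all controls in cKO S3, S4 and S8 and had no read in cKO S5, and the log2 fold change of 1.72 had an SE of 1.06 and an adjusted p of 0.636 from edgeR. It was 0.91 in limma-voom and 0.45 and 0.39 in limma on log2 FPKM with a pseudocount of 1 and 0.1. Microglia also express Slc16a3. Their 8 markers summed to 27.0 to 44.8 CPM in controls and 25.9 to 56.6 CPM in cKO, and their part in the Slc16a3 reads was not tested. Slc16a7 and Bsg had log2 fold changes of −0.97 and 0.14, with overlapping groups.

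Pyruvate dehydrogenase passes pyruvate to the citric acid cycle, and the kinases of Pdk2 and Pdk4 switch it off. Pdha1, a subunit of its first enzyme, was at 67.9, 76.0, 63.4 and 55.6 CPM in controls and 58.7, 49.0, 43.1 and 57.8 CPM in cKO, with a log2 fold change of −0.33 (adjusted p 0.560 in edgeR). Pdk4 was at 17.8, 13.1, 14.4 and 26.5 CPM in controls and 15.8, 18.1, 28.0 and 15.6 CPM in cKO, with control S7 and cKO S5 highest. Its log2 fold change of 0.11 was −0.12 without cKO S5 and −0.015 without control S2. Pdk2 had a log2 fold change of 0.33, and neither kinase gene separated the groups.

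Glycogen is broken down by glycogen phosphorylase. Pygb (chr2:150786735-150831758, plus strand) was at 247, 228, 178 and 172 CPM in controls and 246, 266, 296 and 259 CPM in cKO. Only control S1 reached the cKO range, by less than 1 CPM, and the log2 fold change was 0.37 (SE 0.16) with an adjusted p of 0.470 from edgeR. Pygm (chr19:6384399-6398459, plus strand) was at 376, 334, 217 and 206 CPM in controls and 212, 227, 265 and 179 CPM in cKO, with a log2 fold change of −0.36 (adjusted p 0.617 in edgeR). Pygl was at 0.761, 0.582, 2.03 and 0.853 CPM in controls and 1.43, 5.49, 3.93 and 5.86 CPM in cKO. Those values rest on 12, 8, 37 and 18 reads in the controls and 28, 121, 69 and 137 in cKO. The log2 fold change of Pygl was 1.97 (SE 0.66) with an adjusted p of 0.313 from edgeR, and control S6 lay above cKO S3. In limma on log2 FPKM it was 0.68 with a pseudocount of 1 and 1.08 with 0.1. The deposited FPKM means, with no pseudocount, were 1.55 in controls and 3.31 in cKO. The reason for the smaller change by FPKM was not tested.

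Glycogen is built from glucose by way of UDP-glucose, which the enzyme of Ugp2 makes. Ugp2 was at 60.3, 44.8, 38.3 and 58.3 CPM in controls and 78.4, 82.1, 81.2 and 59.9 CPM in cKO. In cKO S3, S4 and S5 the value lay above all controls, while cKO S8 lay between control S7 and control S1. The log2 fold change was 0.58 (SE 0.19) with an adjusted p of 0.311 from edgeR. Gys1, the glycogen synthase, was at 23.6, 37.1, 32.8 and 42.6 CPM in controls and 24.8, 36.2, 32.6 and 32.5 CPM in cKO, with a log2 fold change of −0.11 that was 0.023 without control S7. Ppp1r3c, which brings a protein phosphatase to glycogen and so favours synthesis, was at 153, 137, 93.5 and 142 CPM in controls and 93.9, 117, 67.9 and 132 CPM in cKO, with a log2 fold change of −0.35 (adjusted p 0.636 in edgeR). The branching enzyme Gbe1 and the primer protein Gyg had log2 fold changes of 0.58 and 0.11 with overlapping groups.

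The balance between isozymes was compared as the log2 ratio of the read counts of the set's 2 leading genes in a step. This ratio does not depend on how a library is scaled. The groups did not overlap in 4 of 9 steps, where 6.44% of all pairs of genes with at least 10 counts in every library did not overlap. No test was run on the ratios, and the pairs share libraries and genes with the fold changes above. Pfkfb3 and Eno1 already separated the groups on their own, and Pygb had an unadjusted p under 0.05 in edgeR. Their ratios are therefore not separate results, and the pairs of all genes were not matched for this. The log2 ratio of Pygm to Pygb was 0.61, 0.55, 0.29 and 0.26 in the controls and −0.21, −0.23, −0.16 and −0.54 in the cKO libraries. Reads of Pygm thus outnumbered those of Pygb in every control library and fell short of them in every cKO library. These are raw reads of genes of unlike length, with 3218 merged exon bases for Pygm and 4809 for Pygb. Per length Pygm still led in every cKO library, at 50.4% to 56.9% of the phosphorylase level by merged exons. Its cKO share by the deposited FPKM was 78.4%. The means were 0.43 ± 0.18 for the 4 controls and −0.29 ± 0.17 for the 4 cKO libraries (SD), and the difference of −0.71 lay between −0.77 and −0.63 when each library was left out in turn and was −0.72 by the deposited FPKM.

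The log2 ratio of Pfkfb3 to Pfkfb2 was 0.24, 0.65, 0.48 and 0.32 in controls and 0.81, 1.16, 1.63 and 1.52 in cKO, a difference of 0.86 towards Pfkfb3. That of Pfkm to Pfkp was −0.081, −0.83, −0.71 and −0.23 in controls and 0.0099, 0.56, 0.058 and 0.40 in cKO, a difference of 0.72, and control S1 came close to cKO S3 and S5. Pfkp had more raw reads than Pfkm in all 4 controls and fewer in all 4 cKO libraries. Per length by merged exons, Pfkm led in all 4 cKO libraries too, at 75.1% to 80.8%. The deposited FPKM gave Pfkp 51.5% and Pfkm 39.8% in cKO. The log2 ratio of Eno1 to Eno2, the enolase of neurons, differed by 0.79 without overlap in the counts but by 0.10 by the deposited FPKM. The log2 ratio of Ldhb to Ldha was 2.06, 2.16, 1.93 and 1.75 in controls and 1.61, 1.19, 2.15 and 1.06 in cKO. In cKO S3, S4 and S8 it was below all controls, and in cKO S5 it was among them. Ratios of Hk1 to Hk2, Aldoc to Aldoa, Slc16a1 to Slc16a7 and Pdk2 to Pdk4 overlapped between the groups.

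**Figure D4:**
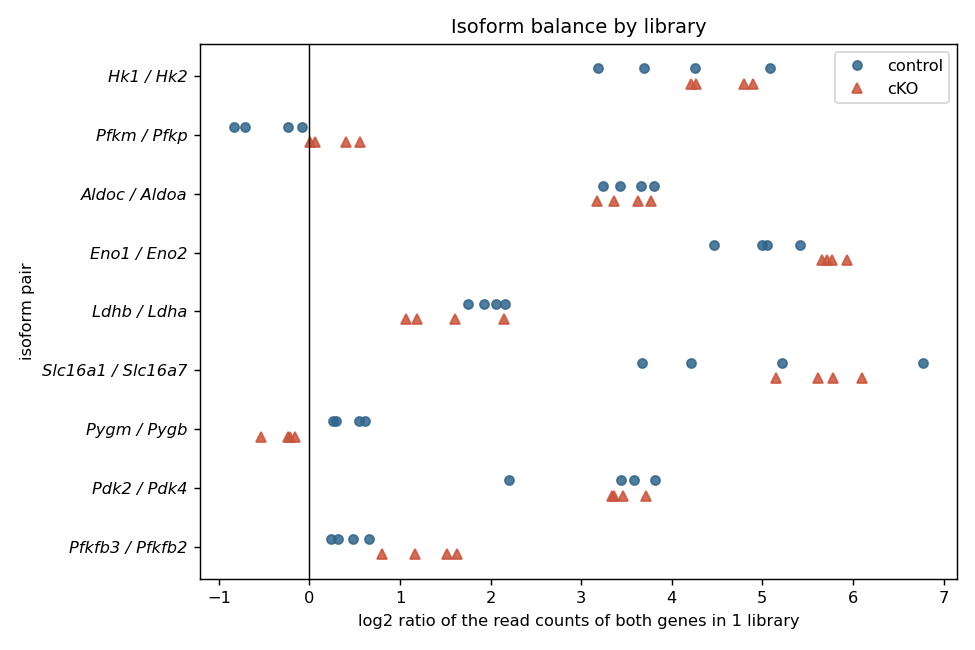
Log2 ratio of the read counts of the set's 2 leading isozyme genes in each of 9 steps, with 1 point per library (circles control, triangles cKO) and a line at equal counts. The groups do not overlap for Pfkm to Pfkp, Eno1 to Eno2, Pygm to Pygb and Pfkfb3 to Pfkfb2, and the Pygm to Pygb and Pfkm to Pfkp points change side of the line. The line marks equal raw reads, not equal levels per length.

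The 35 genes also varied between libraries of 1 group. Control S1 held the highest control value of 20 of the 35 genes and control S6 the lowest of 17, while cKO S5 held the highest cKO value of 19. The summed level of the set was 7101, 6444, 4452 and 5296 CPM in the controls and 6098, 7023, 8139.96 and 5855 CPM in the cKO libraries, of which Aldoc was the largest part. The groups overlapped in this sum. Ribosomal RNA genes, with Lars2, AY036118, Gm26917 and Gm42418, which collect such reads, took 38.2, 39.1, 45.1 and 43.1% of gene reads in the controls and 32.8, 38.2, 33.4 and 44.1% in cKO, with the highest share in control S6 and the lowest in cKO S3, and their part in the library differences was not tested. With these transcripts left out of the counts, 0 of 35 genes passed in edgeR, 7 had an unadjusted p under 0.05 and the median log2 fold change of the set was 0.20. Without cKO S5 the median log2 fold change of the set was 0.085, and without control S6 0.099, against 0.20 with all libraries.

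Other genes of these pathways were taken from 10 lists of 116 genes, of which 89 were tested. Of the 89, 1 passed the adjusted p of 0.05 in edgeR and was higher in cKO, and 11 had an unadjusted p under 0.05, 7 higher and 4 lower (12.4%, near the 9.81% of all genes tested). Control and cKO values did not overlap for 7.87% of the 89, 4 genes higher and 3 lower, near the 6.34% of all genes tested. The gene that passed was Egln3, an oxygen-dependent hydroxylase that marks hypoxia-inducible factors for breakdown and is itself induced by them. Egln3 rose from 4.18, 4.22, 7.85 and 3.13 CPM in the controls to 14.7, 24.0, 37.6 and 22.9 CPM in the cKO libraries. All cKO libraries lay above all controls, and the log2 fold change was 2.35 (SE 0.37) with an adjusted p of 0.0183 from edgeR. The call was lost when control S1, control S2, cKO S4 or cKO S5 was left out, with adjusted p in edgeR of 0.0729, 0.0655, 0.0751 and 0.0637. It held in the other fits without 1 library, with an adjusted p down to 0.0196 in edgeR. In limma on the deposited FPKM it was lost, at an adjusted p of 0.122 with a pseudocount of 1. The authors' deposited table lists Egln3 with an adjusted p of 1.56e-07.

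By list, 5 of 18 tested genes of the hypoxia factor pathway and its targets outside glycolysis had an unadjusted p under 0.05, 4 higher and 1 lower, where 9.81% of all genes tested did and 5.03% were higher, with a list median log2 fold change of 0.056 and 9 of 18 above 0. Besides Egln3 these included Kdm3a, a histone demethylase, at 83.8, 77.5, 74.1 and 68.5 CPM in controls and 101, 108, 166 and 133 CPM in cKO without overlap (log2 fold change 0.74, adjusted p 0.135 in edgeR and 0.0142 in DESeq2). Over this list the groups did not overlap for 2 genes higher and 2 lower in cKO (22.2%), against 6.34% of all genes tested. Bnip3l, a receptor for the removal of mitochondria, was at 34.5, 24.5, 31.7 and 18.1 CPM in controls and 37.8, 48.9, 61.2 and 33.0 CPM in cKO (log2 fold change 0.73, adjusted p 0.349 in edgeR). Hif3a, another member of the factor family, was at 182, 262, 155 and 193 CPM in controls and 163, 81.1, 120.4 and 104 CPM in cKO (log2 fold change −0.76, adjusted p 0.246 in edgeR). Vegfa and Bnip3, textbook targets named after their values were seen, both had a log2 fold change of −0.29. They were among the 9 of 18 genes of the list below 0, with 9 above 0. A part of hypoxia-inducible factors in these values was not tested.

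Of 7 tested glucose transporters outside the set, Slc2a4, the insulin-responsive transporter, was at 75.0, 43.1, 24.1 and 17.8 CPM in controls and 17.9, 14.6, 10.2 and 16.1 CPM in cKO. Control S1 was highest and control S7 lay just below cKO S3, and the log2 fold change was −1.44 with an adjusted p of 0.193 from edgeR and 0.0200 from DESeq2. Slc2a10 was at 4.82, 2.62, 4.89 and 2.75 CPM in controls and 7.76, 15.8, 13.2 and 5.44 CPM in cKO without overlap, with a log2 fold change of 1.48 and an adjusted p of 0.236 from edgeR and 0.0255 from DESeq2. The authors' deposited table also lists Kdm3a, Slc2a4 and Slc2a10 with an adjusted p under 0.05, at 0.0129, 0.0187 and 0.0230. Among 9 tested genes of the NADH shuttles, Got2, the mitochondrial aspartate aminotransferase, was at 19.8, 22.2, 18.1 and 19.6 CPM in controls and 25.0, 29.1, 42.6 and 23.8 CPM in cKO, also without overlap (log2 fold change 0.59, adjusted p 0.415 in edgeR). In the lists of other glycolytic isozymes (9 tested), gluconeogenesis (3), pyruvate entry and the dehydrogenase complex (11) and other monocarboxylate transport (1), 0 genes had an adjusted or an unadjusted p under 0.05 in edgeR. Other glycogen genes (19 tested), the pentose phosphate pathway (8) and signals for glycogen breakdown (4) each had 1 gene at an unadjusted p under 0.05 and 0 at the adjusted one.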

How the data were processed

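Whole-number counts per Ensembl gene were deposited by the authors, 1 table per library. The submitters' processing notes name TopHat2 2.0.11, Bowtie2 2.2.3, HTSeq 0.6.1p1, Cufflinks 2.2.1, Cuffnorm, DESeq2 1.14.1 and GRCm38. The labels' protocols give papain dissociation and amplified cDNA from full length RNA (NuGEN RNA-Seq V2). Summary lines that name no gene held 56.4% to 61.7% of reads and were left out. FPKM values deposited by the authors entered only as means or tests by group, since over 7858 genes 3 of 8 columns ranked closest to their own named library and all 8 to one of their group. The authors' deposited comparison, per the file headers, gives group means of scaled counts (a signal), log2 fold changes, a standard error and statistic (scores) and p-values.

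Counts were tested with edgeR 4.0.16 (TMM, filterByExpr, quasi-likelihood, no covariate, R 4.3.3), with Benjamini-Hochberg adjustment over 14757 genes, after a check on simulated data. Fold changes are cKO over control, and the standard error was taken from the F statistic. Levels per length used merged exons of GENCODE mouse release 21. Alternatives used DESeq2 1.42.0, limma 3.58.1, other scalings, filters and lengths, Xist as a covariate, and each library left out. Members and lists were chosen with earlier results of these data known. Library values are given for genes with an unadjusted p under 0.05 and for 15 genes named whatever their p, as well as a few chosen after their values were seen (Pfkfb2, Pdha1 and Pygm). Of the other pathway genes, Egln3 and the 6 with the next smallest p are named. P-values set the difference between the groups against the spread between these libraries, and counting precision is limited for genes at few reads. Figures were drawn with Python 3.11.15 and matplotlib 3.10.9.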

Additional observations from a re-analysis of the deposited data

Results flagged for a closer look

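In 4 of 102 groups of 4 libraries 1 library stood far from the other 3, where chance gives about 1 in 20 groups, or 5.10. Pfkfb3 was at 187 CPM in control S2 and at most 142 CPM in the other controls, so this library alone sets how near the groups come. Gyg was at 16.2 CPM in cKO S5 and at least 28.3 CPM in the other cKO libraries. Ugp2 was at 59.9 CPM in cKO S8 and at least 78.4 CPM in the other cKO libraries. Pdk2 made up 83.7% of the summed level of Pdk2 and Pdk4 in control S7 and at least 92.3% in the other controls.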

How the results depend on the processing

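Precision was limited by 4 libraries a group and, for Slc16a3, Pygl and Slc16a7, by few reads. The count of genes past the threshold, 47 over all genes (30 higher and 17 lower), was 62 with library totals (48 higher and 14 lower), 87 and 84 with filters of at least 1 count in any and 10 counts in every library, 384 with DESeq2, 9 and 10 with limma on log2 FPKM (pseudocount 1 and 0.1), 28 with Xist as a covariate, and 4 (without cKO S4) to 45 with 1 library left out. Of the set, 0 genes passed in edgeR, 1 with library totals, 3 with DESeq2, and 0 in every fit without 1 library. Of the other pathway genes 1 passed in edgeR, 4 with DESeq2, 0 with either FPKM pseudocount, and 0 to 1 with 1 library left out. Of 448 alternative values for 25 named genes, 428 kept their direction and side of the threshold. Pdk4 changed sign with FPKM (−0.050 with a pseudocount of 1 and −0.050 with 0.1) and in the range without 1 library (−0.12 to 0.37), as did Gys1 (0.031 and 0.035, and −0.25 to 0.023). The cause was not tested. Library totals moved the median of all genes from −0.017 to 0.091 and that of the set to 0.31. Control shares moved with the length used. By the deposited FPKM they were 86.1% for Hk1, 30.8% for Pfkm, 98.6% for Eno1, 93.0% for Slc16a1, 85.8% for Pygm and 83.7% for Pfkfb3. By the longest transcript they were 62.6% for Pfkm, 86.4% for Aldoc, 97.7% for Eno1 and 84.5% for Ldhb. The 4 isozyme ratios without overlap kept their direction by the deposited FPKM, an alternative chosen after seeing the data. Leaving out 1 library could not change their direction, because every cKO ratio lay on 1 side of every control ratio. The library numbers run across both groups and give no pairing, so no paired analysis was run.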

Other observations

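The other 4 pathway genes with an unadjusted p under 0.05, outside the set and the rule for naming, are given as values, chosen after they were seen, in the library order used above. Tkt, the transketolase of the pentose phosphate pathway, was at 88.5, 95.1, 68.3 and 117 CPM in the controls and 57.1, 68.8, 66.9 and 79.0 CPM in cKO (log2 fold change −0.44, adjusted p 0.463 in edgeR). Pgm2, a phosphoglucomutase, was at 99.9, 103, 88.8 and 81.0 CPM in controls and 72.1, 70.4, 62.8 and 80.7 CPM in cKO, without overlap (log2 fold change −0.38, adjusted p 0.435, edgeR). The symbol Pgm2 is that of the authors' deposited table, for ENSMUSG00000025791, and other sources may name this gene otherwise. Hif1a, an oxygen-regulated transcription factor subunit, was at 192, 153, 178 and 165 CPM in controls and 191, 219, 228 and 224 CPM in cKO, with control S1 just above cKO S3 (log2 fold change 0.33, adjusted p 0.483, edgeR). Adrb1, an adrenergic receptor, was at 21.9, 12.7, 9.06 and 6.35 CPM in controls and 30.7, 22.3, 31.4 and 9.63 CPM in cKO, and the groups overlapped (log2 fold change 0.91, adjusted p 0.505, edgeR).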
